A study of Rattus norvegicus with 11 samples.

Results

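What implanted material changed in a healing calvarial defect, whichever material it was, was asked by comparing any scaffold with no scaffold. The level of each gene was averaged over the 3 scaffold groups, each group with equal weight, and set against NC, the group with the defect and no scaffold. A gene was reported as common when it was called in this comparison and its change had the same sign in GelMA, in CTS and in PLA. Of 18049 genes tested, 9542 had the same sign in all 3 scaffold groups and 1340 were called. All 11 libraries of the series entered the comparison, 8 with a scaffold and 3 without.

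All rats were Sprague Dawley animals of 4 months, males per the study's methods, and all carried a rectangular defect drilled across a coronal suture after removal of the overlying periosteum, NC included. GelMA (n = 3) held a gelatin methacryloyl hydrogel, CTS (n = 3) a porous chitosan scaffold and PLA (n = 2) an electrospun membrane of polylactic acid. Tissue was taken from the defect 6 weeks after surgery, digested with type 1 collagenase, fixed and permeabilized, and Cd45- cells were sorted for bulk RNA-seq. NC held no inert filler, so the effect of a filled defect and that of the materials cannot be told apart.

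An implanted material is met by macrophages, which take up debris, fuse into giant cells and present antigen to lymphocytes, and by fibroblasts, which lay down a fibrous capsule around it. Type I interferon and NF-κB are the main transcriptional programs by which phagocytes answer nucleic acids, microbial products and cytokines. A cranial suture is a fibrous joint whose mesenchyme holds the stem cells of the calvarial bones. Its fate is governed by signals that include Wnt, BMP, FGF and hedgehog. Per the paper, these can act in either direction, with a BMP receptor maintaining stem cell properties and BMP-induced hedgehog signals promoting bone differentiation.

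NC libraries held 22509900 to 27522200 counts, and scaffold libraries 28377100 to 31290800. Ptprc, the gene of Cd45, was present in every library of these Cd45- cells, at 1459.7, 336 and 1167 CPM in the NC libraries, at 1347, 1138 and 1259 in GelMA, at 1272, 1184 and 1036 in CTS and at 1019.6 and 1055 in PLA. Genes of macrophages, lymphocytes and granulocytes reported below were thus read in a fraction sorted to exclude Cd45. Whether Cd45+ cells passed the sort in unequal amounts between groups was not tested. Levels here are CPM, the share of the library's counts taken by a gene, scaled as edgeR does by TMM, which offsets differences in composition. NC replicate 2 stood apart from the other NC libraries. Col1a1, Col1a2 and Col3a1, which encode fibrous collagens, took 16.9% of its counts, while they took 0.824% in NC replicate 1, 2.75% in NC replicate 3 and 1.64% to 3.48% with a scaffold. S100a8 and S100a9, abundant in neutrophils, made up 0.565% of its total, 5.62% in NC replicate 1 and 3.99% in NC replicate 3. In bulk libraries, fewer cells of a type and less RNA per cell cannot be told apart. The labels do not say whether replicates are separate animals, so p-values measure the spread between these libraries.

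Compared with NC, 775 genes were called higher, 4.29% of the genes tested, and 565 were called lower, 3.13% (edgeR's quasi-likelihood test on counts, where a call asks for a log2 fold change over 1 in size at a Benjamini-Hochberg adjusted p below 0.05). Of the 40 gene lists, those with the highest share called higher were MHC class II and costimulation (12 of 12), T and NK cell (18 of 22) and B cell genes (8 of 16), and those with the highest share called lower were mast cell and basophil (7 of 10), eosinophil (4 of 7) and neutrophil genes (9 of 16). The lists and their members were chosen with earlier results of these data known, so these shares are descriptions and in part follow from that choice. With limma on log2(FPKM + 1), where libraries are scaled by their totals, 645 genes were called higher and 122 lower. The median log2 fold change of the called genes was 1.85 and −1.99. Per scaffold, medians were 2.15 in GelMA, 1.09 in CTS and 2.44 in PLA among the higher genes, and −2.28, −1.09 and −2.45 among the lower ones. CTS was the weakest of the 3 scaffolds for 599 of the 775 higher and 450 of the 565 lower genes. The scaffold comparisons share the 3 NC libraries, so a like sign in all of them is in part given by those libraries.

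All 8 scaffold libraries lay above all 3 NC libraries for 409 of the 775 higher genes, and below them for 163 of the 565 lower genes. Over all genes tested such separation was seen for 3.89% above and 1.86% below. Called genes were chosen for a large difference in these same libraries, so their larger share follows in part from that choice. Leaving out each of the 11 libraries in turn, 392 higher and 127 lower genes were called every time. When the 8 scaffold libraries were fitted as 1 group, so that differences among the materials counted as spread, 46 genes were higher and 33 lower, and all 79 of them were among the 1340. Those 79 include the macrophage genes Slamf9, Clec4a3, Siglec1, Cd14 and Cd68, the chemokine genes Ccl9 and Ccl12 and the receptor gene Tlr8 on the higher side, and Fmod, Comp, Tnmd, Chad, Sfrp2, Igf2, H19, Igfbp2, Timp4, Tgfb3 and Lrp6 on the lower side. That fit called 1 gene of the T and NK cell list. It called 0 genes higher in the MHC class II and costimulation, B cell, interferon response and NF-κB lists. In the mast cell and basophil, eosinophil and neutrophil lists it called 0 genes lower.

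**Figure D1:**
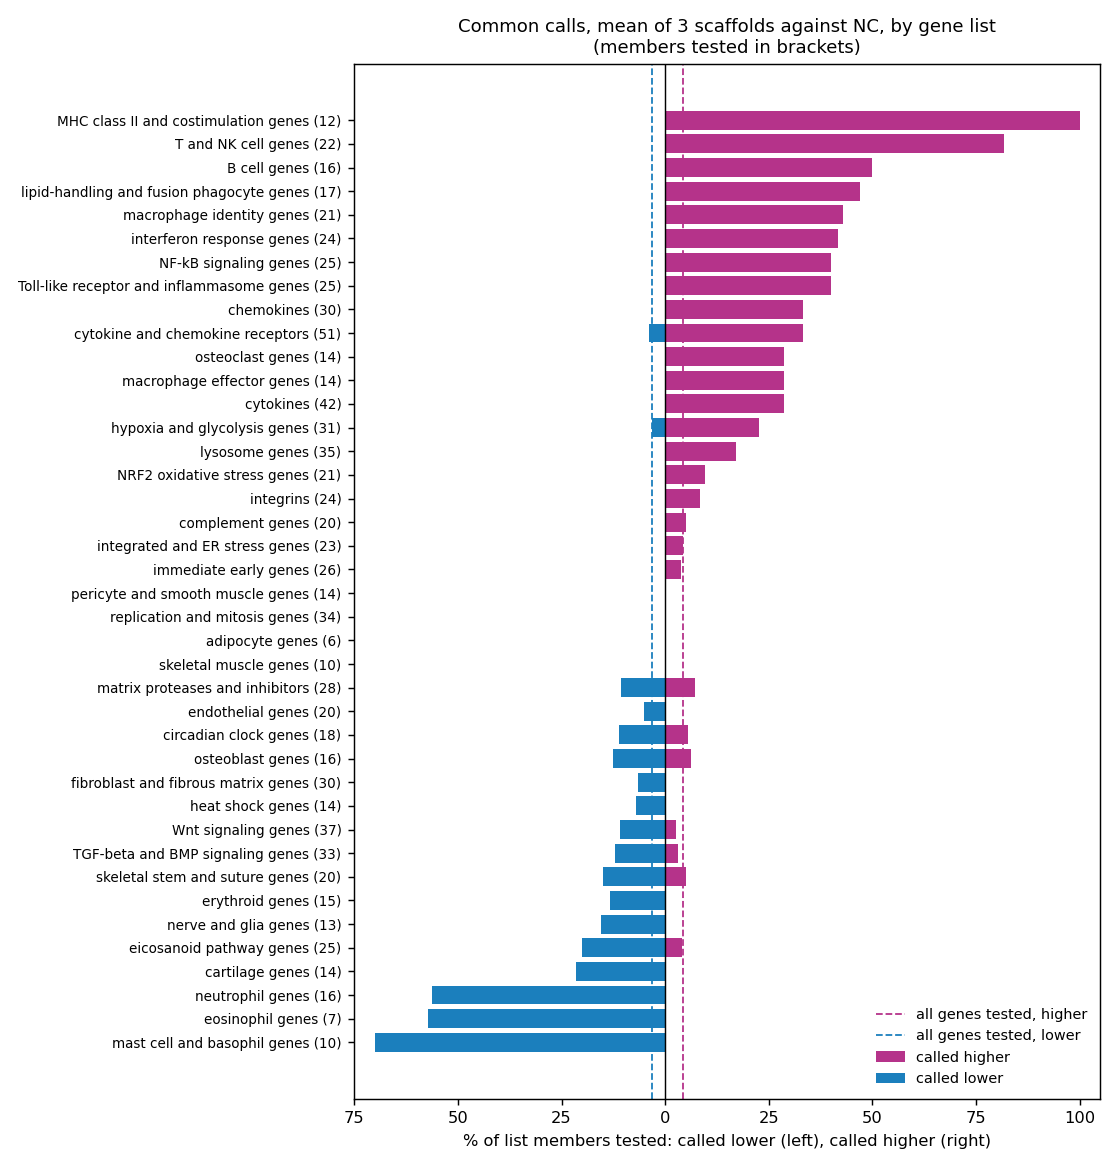
Share of the members of each gene list called higher (right, in %) or lower (left, in %) in the mean of 3 scaffolds against NC, with the number of members tested in brackets. Dashed lines give the share over all genes tested, 4.29% higher and 3.13% lower. All 12 genes of MHC class II and costimulation were called higher and 7 of 10 mast cell and basophil genes lower. The lists were chosen with earlier results of these data known.

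The genes with the largest common rise were ranked by the weakest of their 3 scaffold effects, among genes chosen for libraries that do not overlap with NC, so that separation of the libraries is part of the choice. They held surface molecules and an intracellular inhibitor, secreted and homing molecules, and Isg15. Slamf9, a surface receptor of the SLAM family on myeloid cells, stood at 2.46, 1.54 and 1.30 CPM in the NC libraries, at 33.0, 46.2 and 61.5 in GelMA, at 32.1, 13.1 and 64.5 in CTS and at 29.5 and 34.3 in PLA. The NC libraries were near 0 and CTS replicate 2 was the lowest with a scaffold, and the log2 fold change of the mean was 4.42 (SE 0.54, adjusted p = 0.00192), with 4.73 in GelMA, 4.37 in CTS and 4.17 in PLA. Siglec1, the sialic acid receptor of tissue macrophages that is also named CD169, was at 1.19, 2.44 and 1.19 CPM in the NC libraries, at 50.1, 54.1 and 31.9 in GelMA, at 20.3, 10.8 and 47.3 in CTS and at 9.20 and 11.8 in PLA. Its rise was 3.85 (adjusted p = 0.00261), with 4.82 in GelMA, 4.03 in CTS and 2.71 in PLA. Clec4a3, a C-type lectin receptor of myeloid cells, was at 9.42, 12.4 and 6.09 CPM in the NC libraries, at 113, 119 and 104 in GelMA, at 66.5, 26.1 and 91.9 in CTS and at 69.5 and 93.8 in PLA, and its 3 scaffold effects of 3.59, 2.72 and 3.13 were close to each other. Ms4a7, a membrane gene of mature macrophages, had counts in all 8 scaffold libraries and none in NC replicate 1, with CPM of 0, 1.58 and 0.727 in NC, 18.8, 24.1 and 30.3 in GelMA, 5.38, 3.73 and 9.74 in CTS and 17.2 and 17.3 in PLA. Ms4a6c, a related membrane gene, rose by 3.32 and differed among the scaffolds. Serpinb6b, an intracellular protease inhibitor, rose by 3.00, and none of its scaffold libraries overlapped with NC.

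Ccl9, a chemokine of macrophages, was at 5.60, 1.76 and 2.30 CPM in the NC libraries, at 87.8, 79.6 and 72.2 in GelMA, at 44.9, 13.5 and 67.6 in CTS and at 44.8 and 53.6 in PLA, and rose by 4.09 (SE 0.57, adjusted p = 0.00275). Spp1, which encodes osteopontin, a secreted phosphoprotein of macrophages and of bone cells, stood at 30.98, 8.31 and 39.0 CPM in the NC libraries, at 166, 186 and 197 in GelMA, at 476, 236 and 1037 in CTS and at 763 and 748 in PLA. Every scaffold library lay above every NC library, as its choice required. CTS and PLA lay above GelMA, and the log2 fold changes were 2.81 in GelMA, 4.48 in CTS and 4.85 in PLA. Ccr7, the receptor that leads dendritic cells and lymphocytes to lymphoid tissue, was at 5.77, 1.67 and 1.42 CPM in the NC libraries, at 39.0, 45.8 and 51.0 in GelMA, at 21.6, 8.95 and 41.6 in CTS and at 17.8 and 27.8 in PLA, a rise of 3.30 (adjusted p = 0.00826). Cxcr6, a receptor of tissue-resident T cells, was at 0, 0.813 and 0.995 CPM in the NC libraries, at 33.5, 32.9 and 42.9 in GelMA, at 5.29, 1.93 and 7.15 in CTS and at 15.2 and 13.2 in PLA. GelMA held its highest and CTS its lowest scaffold values, and the scaffolds differed from each other (adjusted p = 0.0434 for the difference among them, a contrast without NC in the fit of all 11 libraries). Fcrl5, an Fc receptor-like gene of B cells, rose by 3.67, again most in GelMA (5.55 in GelMA, 2.70 in CTS and 2.75 in PLA). Isg15, a ubiquitin-like protein induced by interferon, completed the group with a rise of 4.06 (adjusted p = 0.0168, and 0.0635 without NC replicate 3).

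**Figure D2:**
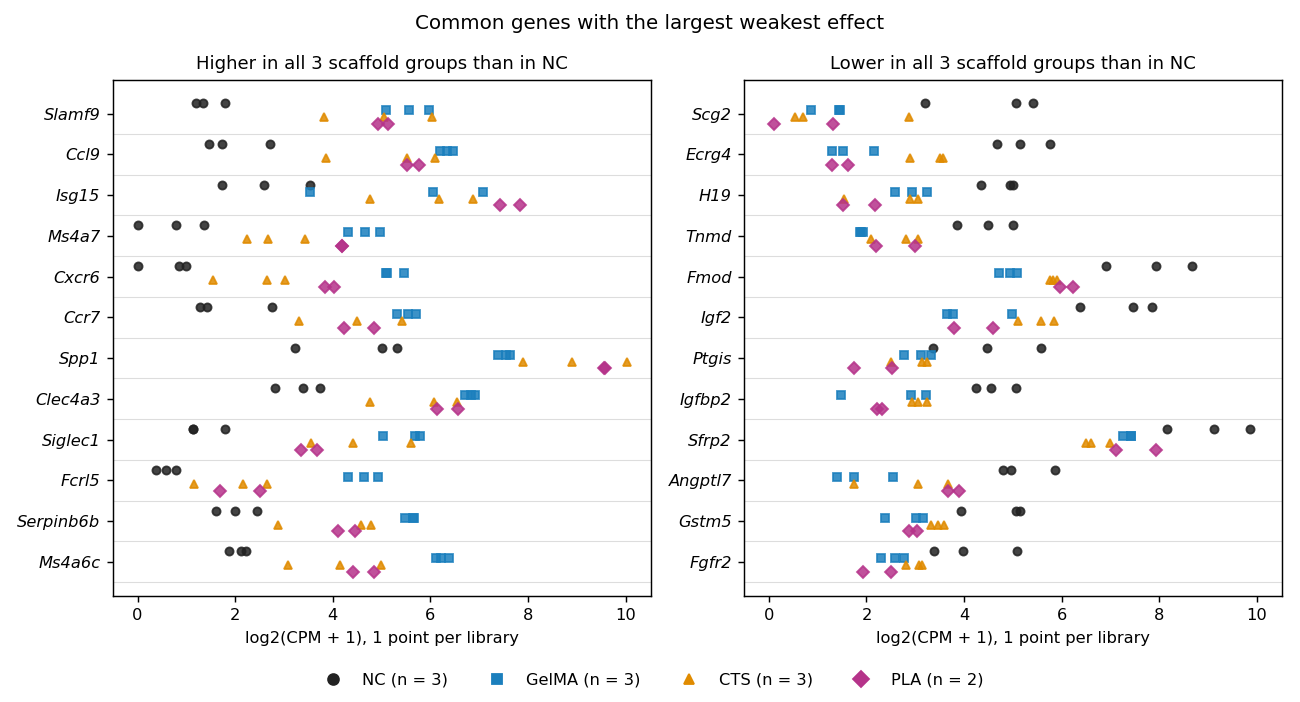
Levels in each library, as log2(CPM + 1), of the 12 higher (left) and 12 lower (right) common genes with the largest weakest effect. Each point is 1 library, by group. Genes were chosen so that no scaffold library overlaps with an NC library, and for Isg15 GelMA replicate 1 (10.6 CPM) lies next to NC replicate 2 (10.5 CPM).

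Macrophage identity genes were called higher for 9 of 21 members, with a median log2 fold change of 1.32 beside −0.07 over all genes tested. Besides Ms4a7 and Siglec1, these included Adgre1, which encodes the macrophage surface protein F4/80 (2.67), Aif1 (2.01), the lipopolysaccharide co-receptor Cd14 (1.62), the endosomal glycoprotein Cd68 (1.47), the efferocytosis receptor Mertk (1.44) and Csf1r, the receptor of the macrophage growth factor (1.32). Cd14 stood at 135, 100.8 and 109 CPM in the NC libraries, at 344, 380.2 and 403 in GelMA, at 259, 303 and 243 in CTS and at 479 and 396 in PLA. All 8 scaffold libraries exceeded the NC libraries, by 1.62 (SE 0.15, adjusted p = 0.000737). The complement genes C1qa, C1qb and C1qc did not pass, with values of 1.89, 1.45 and 1.60 (adjusted p = 0.0844, 0.104 and 0.0785), nor did Lyz2 (−0.20), Spi1 (−0.15) or Cd163 (−0.45). The summed level of the list, in which the abundant genes weigh most, ran from 3037 to 11583 CPM in NC, 6428 to 9911 CPM in GelMA, 11036 to 13588 CPM in CTS and 5433 to 6088 CPM in PLA, so the NC range overlapped with that of each scaffold group. Without NC replicate 2, 14 of the 21 were called higher.

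Genes by which phagocytes handle lipid and fuse rose in 8 of 17 cases. They comprised Spp1, the scavenger receptor Msr1 (2.46), the lysosomal glycoprotein Gpnmb (2.42), the lipid receptor Trem2 (2.22), the lipid droplet protein Plin2 (1.79), the cholesterol exporter Abcg1 (1.75), the fatty acid carrier Fabp5 (1.55) and Cd68. Trem2 stood at 4.37, 0.361 and 1.34 CPM in the NC libraries, at 13.8, 15.0 and 13.3 in GelMA, at 11.1, 6.10 and 10.7 in CTS and at 5.18 and 7.65 in PLA. Its 8 scaffold libraries lay above NC, but the call (adjusted p = 0.0414) was lost without NC replicate 3 or any 1 scaffold library, and without NC replicate 1 the value was 3.44. Apoe and Cd36, which also carry lipid, had values of 0.20 and 0.11 that did not pass. Of 14 osteoclast genes, 4 were called higher, namely Atp6v0d2, a proton pump subunit needed for cell fusion (4.34), the costimulatory receptor Oscar (2.19), Tnfrsf11a, which encodes RANK (2.05), and Acp5, the tartrate-resistant acid phosphatase (1.41). Atp6v0d2 was at 0.297, 0.0452 and 0.0383 CPM in NC, against 1.32, 1.09 and 0.934 in GelMA, 2.48, 1.42 and 7.64 in CTS and 4.15 and 4.43 in PLA. The call of Tnfrsf11a was lost without NC replicate 3 or any 1 of 7 scaffold libraries. The collagen-degrading protease Ctsk (−0.85) and the calcitonin receptor Calcr (−4.25) of that list did not pass. Lysosome genes were called higher for 6 of 35, among them the proteases Ctss (1.96) and Ctsb (1.30) and the acid lipase Lipa (1.19), with a list median of 0.27. Without NC replicate 3, the counts of osteoclast and lysosome genes went to 2 and 3.

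All 12 genes of MHC class II antigen presentation and costimulation were called higher, with a median of 1.45. The list holds the class II chains RT1-Ba, RT1-Bb, RT1-Da and RT1-Db1, the peptide exchange chains RT1-DMa and RT1-DMb, the invariant chain Cd74, its protease Ctss, the class II transactivator Ciita and the costimulatory genes Cd80, Cd83 and Cd86. RT1-Bb was at 43.3, 42.7 and 79.7 CPM in the NC libraries, at 342, 428 and 537 in GelMA, at 181, 84.7 and 163 in CTS and at 153 and 219.6 in PLA, a rise of 2.03 (SE 0.32, adjusted p = 0.00428). Ctss was at 82.6, 62.2 and 69.3 CPM in the NC libraries, at 474, 544 and 418 in GelMA, at 199.6, 152 and 280.2 in CTS and at 197 and 227 in PLA. In both genes the NC libraries were the 3 lowest and the GelMA libraries the 3 highest, and the scaffold effects were 2.75 in GelMA, 1.56 in CTS and 1.57 in PLA for Ctss. GelMA had the strongest effect for all 12 genes, and 9 of the 12 differed among the scaffolds. The RT1 genes are close copies of each other, so reads may have been split among them. Without NC replicate 3, 5 of the 12 were called, and between 8 and 12 without any other library. When GelMA was left out of the contrast, 5 of the 12 were called.

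Of 22 T and NK cell genes, 18 were called higher, with a median of 2.50. They included all chains of the CD3 complex tested (Cd3d 2.95, Cd3e 2.66, Cd3g 2.77 and Cd247 2.55), the coreceptors Cd4 (1.77), Cd8a (2.63) and Cd8b (3.66), the kinases Lck (2.24) and Zap70 (2.29), the transcription factors Tbx21 (2.10), Eomes (2.40) and Foxp3 (2.96), and the cytotoxic genes Prf1 (2.46), Gzmb (1.66) and Gzmk (1.93). Foxp3, the master regulator of regulatory T cells, stood at 0.679, 0.361 and 1.76 CPM in the NC libraries, at 13.5, 12.9 and 18.6 in GelMA, at 2.92, 2.66 and 7.67 in CTS and at 3.40 and 8.81 in PLA. These levels were low in every group, but no scaffold library overlapped with NC. GelMA had the strongest effect in 17 of the 18 genes, and 15 of the 18 differed among the scaffolds. The 4 that did not pass are all genes of NK cells, namely Ncr1 (0.57, adjusted p = 0.424), Klrb1 (−0.43, 0.871), Nkg7 (−0.81, 0.197) and Klrd1. The summed level of the list was 130.2 to 234 CPM in NC, 1407 to 1589 CPM in GelMA, 238 to 524 CPM in CTS and 612 to 636 CPM in PLA. Between 15 and 18 of the 22 were called without any 1 library, and the call of Cd8b was lost without any 1 GelMA or PLA library. When GelMA was left out of the contrast, 12 of the 22 were called.

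B cell genes were called higher for 8 of 16 members, and these 8 also differed among the scaffolds. Ms4a1, which encodes CD20, was at 1.87, 0.678 and 0.498 CPM in the NC libraries, at 86.0, 64.0 and 54.4 in GelMA, at 6.82, 4.17 and 14.3 in CTS and at 2.36 and 8.98 in PLA. GelMA was far above the other groups, and PLA replicate 1 lay just over the highest NC value. Cd79a, a signaling chain of the B cell receptor, had effects of 2.69 in GelMA, 1.33 in CTS and 0.06 in PLA, so PLA hardly differed from NC. Genes of B cell precursors in the list, Vpreb1 (−1.37), Igll1 (−0.40), Rag1 (−1.31) and Rag2 (−1.15), did not pass. When GelMA was left out of the contrast, 3 of the 16 were called.

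**Figure D3:**
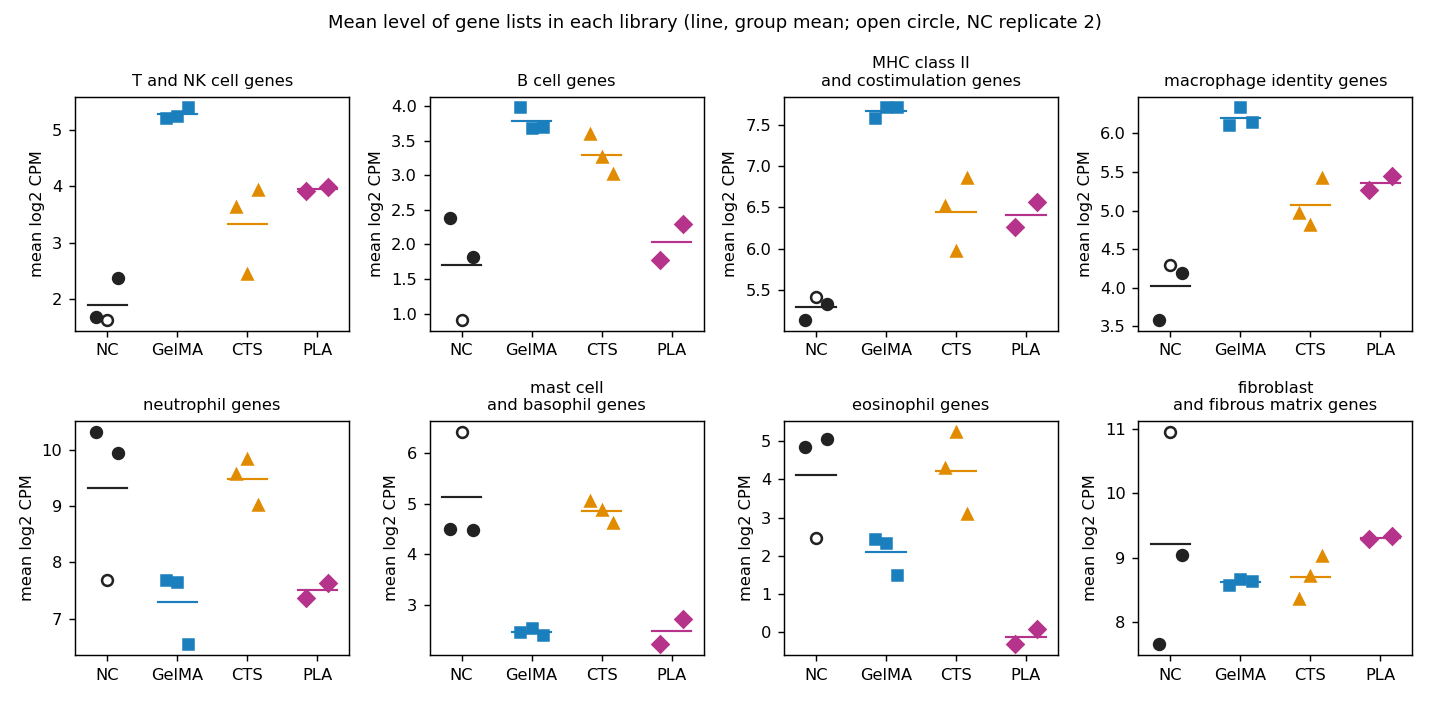
Level of 8 gene lists, each point 1 library and its height the mean log2 CPM over the list's members, with the group mean as a line and NC replicate 2 as an open circle. Each panel has its own axis. T and NK cell and MHC class II genes lie above NC in all 8 scaffold libraries, while the CTS libraries lie within or next to the NC range for neutrophil, mast cell and eosinophil genes.

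Interferon response genes were called higher for 10 of 24 members, with a median of 1.66, and 22 of the 24 had the same sign in all scaffold groups. The 10 were Isg15, Ifit3, Mx1, Mx2, Irf7, Oas1a, Oas2, Oasl, Gbp2 and Xaf1, which include the antiviral effectors of the pathway and Irf7, the transcription factor that amplifies it. CTS, the weakest material over the common genes as a whole, had the strongest effect for 6 of these 10 and the weakest for 1. Of the 10, 1 gene, Gbp2, differed among the scaffolds, so an order of the materials was not shown for these genes. Irf7 stood at 25.04, 21.5 and 14.4 CPM in the NC libraries, at 26.6, 97.4 and 155 in GelMA, at 265, 107 and 225 in CTS and at 165 and 203 in PLA. Its log2 fold changes were 2.20 in GelMA, 3.29 in CTS and 3.18 in PLA (mean 2.89, SE 0.53, adjusted p = 0.0086). Isg15 was at 5.05, 10.5 and 2.34 CPM in the NC libraries, at 10.6, 65.1 and 134 in GelMA, at 116, 26.2 and 70.9 in CTS and at 171 and 228 in PLA, with GelMA replicate 1 at the edge of the NC range. Ifit3, which binds viral RNA together with its partners, was at 58.8, 66.8 and 85.1 CPM in the NC libraries, at 66.1, 399.8 and 811 in GelMA, at 935, 186 and 303 in CTS and at 2191 and 2528 in PLA, and in it too GelMA replicate 1 lay within the range of NC while the other 7 scaffold libraries lay above it. The call of Ifit3 was lost without NC replicate 3. Mx1, a dynamin-like GTPase, rose by 3.41 with 3.73 in GelMA, 4.33 in CTS and 2.17 in PLA, though reads can be split between it and Mx2. The signal transducer Stat2 had too small a change for a call (0.84, adjusted p = 0.0175), and Irf1, which responds to interferon gamma, had −0.13. The interferon gene Ifnb1, which had 0 counts in NC and at most 1.03 CPM with a scaffold (adjusted p = 0.0712), and Ifng (3.34, 0.0878) did not pass. Between 6 and 14 of the 24 were called without any 1 library, the fewest without NC replicate 3 and the most without NC replicate 2.

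NF-κB signaling genes were also called higher for 10 of 25 members, with a median of 0.82. PLA had the strongest and CTS the weakest effect in all 10, and 9 of them differed among the scaffolds. They were the inhibitors Nfkbia, Nfkbib, Nfkbid and Nfkbie, the feedback genes Tnfaip3 and Tnip1, the antiapoptotic genes Birc3 and Cflar, the adaptor Traf1 and the subunit gene Nfkb2, and the call of Nfkbie was lost without any 1 of 8 libraries. Tnfaip3, which encodes the ubiquitin-editing enzyme A20, was at 633, 565 and 592 CPM in the NC libraries, at 1349, 1489 and 1758 in GelMA, at 1048, 768 and 965 in CTS and at 4669 and 4938 in PLA. All scaffold libraries were above NC, by 1.36 in GelMA, 0.64 in CTS and 3.01 in PLA (mean 1.67, SE 0.17, adjusted p = 0.000867). Nfkbia, the inhibitor that holds NF-κB in the cytoplasm, was at 928, 801 and 898 CPM in the NC libraries, at 1256, 1570.0 and 1884 in GelMA, at 1204, 1019 and 1275 in CTS and at 5522 and 6838 in PLA. The CTS libraries lay closest to NC and the PLA libraries far above all others. When PLA was left out of the contrast, edgeR called 0 of the 25 NF-κB genes, with 14 at an unadjusted p under 0.05, and 9 of the 24 interferon response genes. The kinase genes Chuk (−0.06), Ikbkb (0.16) and Ikbkg (0.37) and the subunit gene Rela (0.18) did not pass.

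The promoters shown are from called members of these lists, chosen among those that hold the motif searched for. Called members without a match, Mx1 and Oasl for interferon and Cflar, Nfkbib, Nfkbid, Nfkbie, Tnip1 and Traf1 for NF-κB, are not shown. Sequences are from RefSeq on the GRCr8 assembly, 250 bases before to 50 after the start of the gene, 5′ to 3′ on the strand of the gene, with the motif in capitals. For the interferon response the letters GAAANNGAAA were searched on both strands (TTTCNNTTTC on the other), the core of an interferon-stimulated response element, and overlapping matches were kept. Irf7 lies at chr1:205799974-205800273 (minus strand), Oas1a, which encodes a synthetase that switches on RNA degradation, at chr12:41330216-41330515 (plus strand), and Ifit3 at chr1:241527076-241527375 (plus strand).
Irf7: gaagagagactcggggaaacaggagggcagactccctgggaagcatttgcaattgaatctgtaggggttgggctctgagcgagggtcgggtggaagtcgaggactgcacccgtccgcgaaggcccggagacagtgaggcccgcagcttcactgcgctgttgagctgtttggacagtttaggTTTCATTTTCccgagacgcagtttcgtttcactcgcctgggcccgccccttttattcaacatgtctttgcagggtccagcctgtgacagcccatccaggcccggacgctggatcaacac
Oas1a: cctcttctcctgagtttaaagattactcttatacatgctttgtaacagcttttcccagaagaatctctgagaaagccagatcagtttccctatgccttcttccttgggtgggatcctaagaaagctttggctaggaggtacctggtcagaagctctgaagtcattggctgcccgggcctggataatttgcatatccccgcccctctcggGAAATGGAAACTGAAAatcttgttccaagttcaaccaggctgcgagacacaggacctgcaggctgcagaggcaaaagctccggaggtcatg
Ifit3: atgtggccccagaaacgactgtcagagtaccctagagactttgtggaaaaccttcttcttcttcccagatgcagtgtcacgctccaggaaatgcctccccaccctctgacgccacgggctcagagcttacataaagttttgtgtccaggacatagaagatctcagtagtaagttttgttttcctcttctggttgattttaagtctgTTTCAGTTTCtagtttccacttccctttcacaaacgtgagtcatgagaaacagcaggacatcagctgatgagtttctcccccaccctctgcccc
These letters were present in 10 of the 16 interferon response genes with a promoter entry, in 5 of the 7 called ones, in 44 of 576 common higher genes (7.64%), in 12 of 415 common lower genes (2.89%) and in 3.12% of the 13222 genes tested that had an entry.

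For NF-κB the letters GGGANNTTCC were searched in the same way (GGAANNTCCC on the other strand), the outer bases of a κB site. Nfkbia lies at chr6:78597023-78597322 (minus strand) and Tnfaip3 at chr1:15543930-15544229 (minus strand).
Nfkbia: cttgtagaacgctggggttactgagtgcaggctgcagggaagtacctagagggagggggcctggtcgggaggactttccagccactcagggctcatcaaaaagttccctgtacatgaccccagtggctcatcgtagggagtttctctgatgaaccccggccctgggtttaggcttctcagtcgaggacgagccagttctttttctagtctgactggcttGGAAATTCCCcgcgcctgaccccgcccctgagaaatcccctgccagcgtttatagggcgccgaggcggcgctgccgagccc
Tnfaip3: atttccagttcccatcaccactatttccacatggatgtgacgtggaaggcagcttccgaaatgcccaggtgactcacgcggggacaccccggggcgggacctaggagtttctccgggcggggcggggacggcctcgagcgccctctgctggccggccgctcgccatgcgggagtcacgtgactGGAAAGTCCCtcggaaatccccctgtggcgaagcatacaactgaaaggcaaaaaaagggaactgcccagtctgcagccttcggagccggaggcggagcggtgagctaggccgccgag
They were present in 5 of 21 NF-κB genes with an entry, in 3 of the 9 called ones, in 3.3% of the common higher genes, in 0.964% of the common lower genes and in 1.43% of the genes tested. A match is a description of these bases, not evidence that a factor was bound.

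**Figure D4:**
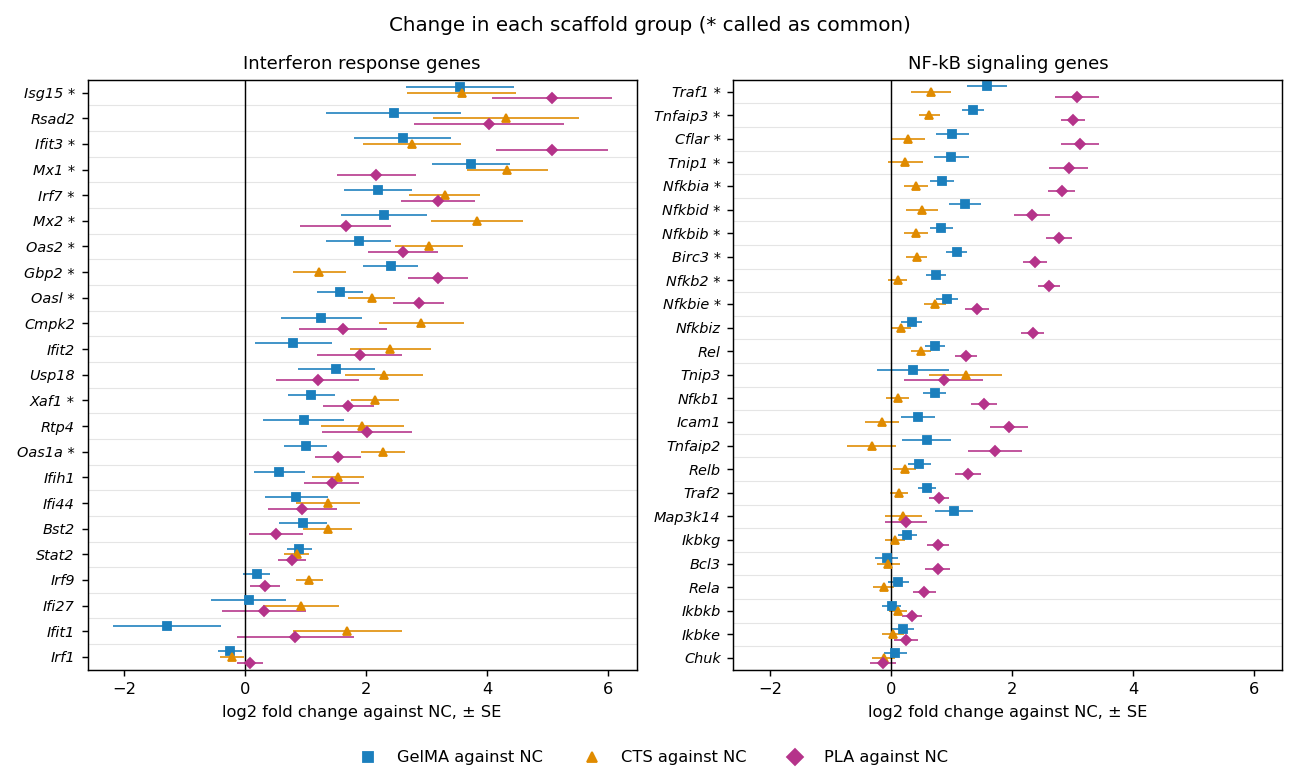
Log2 fold change against NC in GelMA, CTS and PLA (points with SE) for the interferon response list (left, 23 of 24 genes) and the NF-κB list (right, 25 genes), with called genes marked by an asterisk. In the NF-κB list PLA lies to the right of the other materials in the 10 called genes, and in the interferon list the 3 materials overlap for most genes. The 3 comparisons share the NC libraries.

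Of 25 Toll-like receptor and inflammasome genes, which sense microbial products and nucleic acids, 10 were called higher. Tlr8, an endosomal RNA sensor, was at 10.99, 5.69 and 9.26 CPM in the NC libraries, at 50.1, 61.6 and 65.7 in GelMA, at 34.6, 22.7 and 36.3 in CTS and at 43.2 and 50.2 in PLA. No scaffold library overlapped with NC, and the rise was 2.35 (SE 0.25, adjusted p = 0.00119). Tlr7, its neighbour in function, rose by 1.18, the lipoprotein receptors Tlr1 and Tlr6 by 1.16 and 2.02, the bacterial RNA sensor Tlr13 by 1.72, and the inflammasome genes Nlrp3 and Casp1 by 1.66 and 1.45. Tlr4 (−0.53), Tlr2 (0.68) and Myd88 (−0.27) did not pass.

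Among cytokines, 12 of 42 were called higher. Il1a, an alarm cytokine of the interleukin 1 family, was at 33.9, 23.3 and 40.7 CPM in the NC libraries, at 342, 399 and 551 in GelMA, at 116, 90.8 and 105.4 in CTS and at 2116 and 2291 in PLA. Every scaffold library exceeded every NC library, and the rise was 3.82 (SE 0.25, adjusted p = 0.000327), with 3.72 in GelMA, 1.67 in CTS and 6.08 in PLA. Il1b (1.95) and Tnf (3.65), which macrophages release early in inflammation, rose together with the inhibitors of the same system, Il1rn, the decoy ligand of the interleukin 1 receptor (2.81), and Il10 (3.27). In all 12 the weakest effect was that of CTS, and 9 of the 12 differed among the scaffolds. Il1rn was at 388, 178 and 481 CPM in the NC libraries, at 1139, 2003 and 3132 in GelMA, at 690.2, 466 and 694 in CTS and at 11477 and 11326 in PLA. The PLA libraries were higher than all others, and CTS replicate 2 lay within the NC range. Il18, which induces interferon gamma, had 2.24 in GelMA, 1.48 in CTS and 2.05 in PLA, and its difference among the materials did not pass (adjusted p = 0.31). The type 17 cytokines Il17a and Il22 and Il23a, a subunit of the cytokine that maintains their source cells, were all higher. Il23a was at 5.43, 3.89 and 11.2 CPM in the NC libraries, at 57.5, 138 and 240.2 in GelMA, at 17.4, 15.0 and 13.1 in CTS and at 1549 and 1862 in PLA. The PLA values were of another order than the rest, and CTS lay just over NC. Il17a was at 1.27, 0.587 and 0.459 CPM in the NC libraries, at 40.4, 17.0 and 8.44 in GelMA, at 4.64, 2.37 and 3.80 in CTS and at 22.6 and 17.6 in PLA, a rise of 3.91 (adjusted p = 0.00368) that differed among the scaffolds. Il22 had 0 counts in the 3 NC libraries and 470 counts over the 8 scaffold libraries, at least 46.1-fold higher against a floor of 3 counts over the NC group, with CTS replicate 2 also at 0. Its call was lost without NC replicate 3, any 1 GelMA library or any 1 PLA library. Il6 (−0.13), Il33 (−0.34) and Csf1 (0.19) did not pass.

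Chemokines were called higher for 10 of 30. Ccl12, a monocyte chemokine, had 1 count in the 3 NC libraries together and 895 in the 8 scaffold libraries, 264-fold in CPM with an exact 95% counting interval of 47.2 to 10423, and the scaffold effects were 7.57 in GelMA, 7.501 in CTS and 8.12 in PLA. Chemokines that attract T cells, Ccl4 (3.39), Ccl5 (2.26), Ccl22 (2.32) and Cxcl16 (1.58), were higher, as were the neutrophil chemokines Cxcl2 (2.71) and Cxcl6 (4.97). CTS had the weakest effect for all 10. Ccl2 (−0.61) and Cxcl12 (0.31) did not pass. Of 51 receptors of cytokines and chemokines, 17 were higher and 2 lower. The higher ones held Il2ra, Il2rb and Il2rg, the 3 chains of the interleukin 2 receptor (2.84, 2.91 and 1.89), Il7r (2.58), Il21r (2.31), and the chemokine receptors Cxcr3 (3.19) and Cx3cr1 (2.03). Cxcr3, the receptor of interferon-induced chemokines on T cells, stood at 0.934, 0.949 and 1.80 CPM in the NC libraries, at 25.7, 33.6 and 33.6 in GelMA, at 4.40, 2.84 and 10.8 in CTS and at 9.20 and 6.27 in PLA. Again GelMA was highest, and the 8 scaffold libraries lay above NC. The lower ones were Il11ra1 (−1.48) and the decoy receptor Il13ra2 (−1.31), and both calls were lost without NC replicate 3, GelMA replicate 2 or either PLA library, and that of Il11ra1 also without GelMA replicate 3 or NC replicate 2 (−0.98).

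On the lower side, the 12 genes chosen in the same way were, from the largest weakest effect down, Scg2, Ecrg4, H19, Tnmd, Fmod, Igf2, Ptgis, Igfbp2, Sfrp2, Angptl7, Gstm5 and Fgfr2. Fmod, which encodes fibromodulin, a collagen-binding proteoglycan of tendon and suture, was at 242, 118 and 408 CPM in the NC libraries, at 33.0, 29.6 and 25.3 in GelMA, at 55.2, 53.1 and 58.5 in CTS and at 74.6 and 61.6 in PLA. Each NC library exceeded each scaffold library, including the collagen-poor NC replicate 1 and the collagen-rich NC replicate 2, and the change was −2.42 (SE 0.27, adjusted p = 0.00137). Tnmd, the tenocyte membrane protein tenomodulin, was at 13.5, 21.3 and 31.2 CPM in the NC libraries, at 2.64, 2.82 and 2.69 in GelMA, at 7.35, 6.04 and 3.25 in CTS and at 3.61 and 6.96 in PLA, with effects of −3.02 in GelMA, −1.99 in CTS and −2.06 in PLA. Angptl7, a secreted angiopoietin-like protein, was at 30.2, 26.9 and 57.0 CPM in the NC libraries, at 2.34, 4.83 and 1.64 in GelMA, at 7.30, 2.37 and 11.7 in CTS and at 13.8 and 11.8 in PLA. From the gene lists, Comp, a matrix protein of cartilage and tendon, had a log2 fold change of −3.97, a value that was −2.31 and not called without NC replicate 3 (adjusted p = 0.0595), the NC library with most Comp. Chad, a cartilage matrix protein that binds integrins, was at 3.22, 8.18 and 18.9 CPM in the NC libraries, at 0.811, 0.880 and 0.409 in GelMA, at 1.004, 1.36 and 1.54 in CTS and at 0.497 and 0.0430 in PLA, a change of −4.00 (adjusted p = 0.00292) that was called without any 1 library. Timp4, an inhibitor of matrix metalloproteinases, changed by −2.60, and its scaffold effects of −2.58, −2.26 and −2.96 were close to each other.

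The insulin-like growth factor gene Igf2 and its neighbour H19 were lower, as was Igfbp2. Igf2, a growth factor of fetal and mesenchymal tissue, stood at 174, 81.4 and 229 CPM in the NC libraries, at 11.6, 12.7 and 30.4 in GelMA, at 56.3, 33.3 and 46.4 in CTS and at 12.8 and 23.1 in PLA. GelMA and PLA were lowest, CTS was between them and NC, and the change was −2.72 (SE 0.35, adjusted p = 0.00234). H19, the noncoding RNA transcribed next to Igf2 in the same imprinted locus, was at 29.6, 19.5 and 31.2 CPM in the NC libraries, at 8.44, 6.68 and 4.99 in GelMA, at 1.92, 7.33 and 6.42 in CTS and at 1.87 and 3.52 in PLA, a change of −2.55 (adjusted p = 0.00281). Igfbp2, a binding protein of these growth factors, was at 18.0, 22.3 and 32.5 CPM in the NC libraries, at 1.80, 6.53 and 8.26 in GelMA, at 8.45, 7.27 and 6.62 in CTS and at 3.65 and 3.95 in PLA. In each of the 3 genes the lowest NC library exceeded the highest scaffold library, as their choice required. Fgfr2, a receptor of fibroblast growth factors that is active in sutures, changed by −1.91, with −1.95 in GelMA, −1.43 in CTS and −2.34 in PLA.

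Sfrp2, a secreted inhibitor of Wnt signaling made by mesenchymal cells, was at 284, 923 and 558 CPM in the NC libraries, at 171, 151 and 169 in GelMA, at 88.8, 95.5 and 127 in CTS and at 243 and 137 in PLA. The lowest NC library was close to the highest scaffold library, PLA replicate 1, and the change was −1.99 (SE 0.29, adjusted p = 0.00321). Ecrg4, a secreted peptide precursor of quiescent cells, was at 34.6, 24.4 and 53.3 CPM in the NC libraries, at 1.44, 1.88 and 3.45 in GelMA, at 6.44, 10.9 and 10.3 in CTS and at 2.07 and 1.46 in PLA. CTS fell least, and the scaffolds differed from each other (adjusted p = 0.00679). Scg2, a granin of secretory vesicles, was at 8.23, 41.4 and 32.6 CPM in the NC libraries, at 0.811, 1.73 and 1.69 in GelMA, at 6.35, 0.632 and 0.459 in CTS and at 0.0829 and 1.504 in PLA. Ptgis, the synthase of prostacyclin, was at 9.25, 46.4 and 21.2 CPM in the NC libraries, at 5.80, 7.68 and 8.94 in GelMA, at 4.64, 8.50 and 7.77 in CTS and at 2.36 and 4.73 in PLA. Gstm5, a glutathione transferase, was at 14.3, 32.5 and 34.3 CPM in the NC libraries, at 4.24, 7.10 and 7.94 in GelMA, at 8.95, 11.03 and 9.998 in CTS and at 6.30 and 7.18 in PLA. In these 3 genes, too, no scaffold library reached the lowest NC library, as their choice required. Ptgis was called without any 1 library, but its value of −2.17 became −1.42 without NC replicate 2, the NC library with most Ptgis.

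The fibrous collagens themselves gave no call. Col1a1 was at 3497, 73587 and 9593 CPM in the NC libraries, at 8563, 8158 and 8342 in GelMA, at 7319, 9613 and 11849.6 in CTS and at 8625 and 12499.9 in PLA. Of the 3 NC libraries, 1 was above and 1 below all scaffold libraries, and the value of −1.61 (adjusted p = 0.141) became 0.53 without NC replicate 2. Of 30 fibroblast and fibrous matrix genes, 24 had the same lower sign in all scaffold groups, with a median of −1.25, but Fmod and Ogn alone were called. Ogn, a small proteoglycan of connective tissue and bone, had −1.96 (adjusted p = 0.0153), −1.09 without NC replicate 2 and no call without PLA replicate 1. Without NC replicate 1, the NC library with least collagen, 20 of the 30 were called lower, and without NC replicate 2, 2 were lower and 3 higher. The summed level of the list was 16155 to 297426 CPM in NC, 36761 to 37659 CPM in GelMA, 33088 to 52481 CPM in CTS and 43857 to 56299 CPM in PLA. Cartilage genes were called lower for 3 of 14, namely Chad, Comp and the proteoglycan Acan (−2.49), or 1 without NC replicate 3 and 5 without NC replicate 2. Sox9, the cartilage transcription factor, had −1.17 (adjusted p = 0.183).

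Of 20 skeletal stem and suture genes, 1 was higher, near the 4.29% over all genes tested, and 3 were lower, beside 3.13%. Gli1, the hedgehog target that marks suture stem cells, was at 5.52, 4.20 and 2.26 CPM in the NC libraries, at 1.41, 0.728 and 1.37 in GelMA, at 1.39, 1.36 and 0.819 in CTS and at 1.78 and 1.16 in PLA. No scaffold library reached the lowest NC library, and the change was −1.65 (adjusted p = 0.0208), a call that was lost without NC replicate 1 or PLA replicate 2. Six2, a transcription factor of craniofacial mesenchyme, was at 6.37, 4.20 and 9.49 CPM in the NC libraries, at 1.77, 0.880 and 1.61 in GelMA, at 2.63, 2.78 and 3.54 in CTS and at 0.705 and 0.301 in PLA, a change of −2.37 (adjusted p = 0.00326). Lepr, the leptin receptor of perivascular stromal cells, was called lower, with −1.84 in GelMA, −0.28 in CTS and −2.07 in PLA (adjusted p = 0.0483). Cd200, whose product on the cell surface dampens macrophage activation, was at 15.5, 15.0 and 16.7 CPM in the NC libraries, at 36.5, 41.0 and 56.1 in GelMA, at 26.6, 21.7 and 53.2 in CTS and at 121 and 98.9 in PLA, higher in all scaffold libraries and most so in PLA. Axin2 (−0.13), Prrx1 (−0.98), Twist1 (−0.91), Pdgfra (−0.60) and Ctsk (−0.85) did not pass. Among 16 osteoblast genes, Spp1 was higher, and the bone proteoglycan Omd (−2.28) and the mineralization protease Phex (−3.44) were lower. Both calls were lost without NC replicate 2, where Omd had −0.91, and without GelMA replicate 2, CTS replicate 1 or PLA replicate 1. Runx2 (0.62), Alpl (−0.52), Ibsp (−0.72) and Bglap (−1.61) were not called.

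Wnt signaling genes were called higher for 1 of 37 and lower for 4, beside 4.29% higher and 3.13% lower over all genes tested. The lower ones were Sfrp2, the receptors Lrp6 (−1.06) and Lgr4 (−1.49) and the agonist Rspo3 (−1.79), whose call was lost without any 1 of 8 libraries. The higher one was Tcf7, a transcription factor of the pathway that is abundant in T cells, at 9.76, 4.79 and 7.12 CPM in the NC libraries, at 100.6, 93.2 and 122 in GelMA, at 40.4, 10.8 and 35.5 in CTS and at 22.1 and 32.9 in PLA. Its scaffold libraries lay above NC, CTS replicate 2 by the least. In TGF-β and BMP signaling, 1 of 33 genes was higher and 4 were lower. In this list and the Wnt list, the single higher call is near the 4.29% over all genes tested. Tgfb3, the ligand expressed in suture mesenchyme, was at 63.3, 117 and 88.0 CPM in the NC libraries, at 17.2, 20.2 and 20.5 in GelMA, at 24.9, 25.9 and 38.5 in CTS and at 44.0 and 45.8 in PLA, a change of −1.60 (SE 0.19, adjusted p = 0.00164) that was largest in GelMA and smallest in PLA. The ligand Bmp4 (−2.01), the inhibitor Smad6 (−1.27) and the latent binding protein Ltbp2 (−1.76) were also lower, and Id2, a BMP target, was higher (1.03), chiefly in PLA (2.33). The call of Id2 was lost without NC replicate 2, any 1 GelMA library or CTS replicate 1 or 3, and was not made when PLA was left out of the contrast (0.39), and that of Ltbp2 was lost without NC replicate 3 or either PLA library. The ligand genes Tgfb1 (0.29) and Bmp2 (−0.19) did not pass. Between 1 and 10 genes of this list were called lower without any 1 library, the most without NC replicate 1 and the fewest without NC replicate 3 or either PLA library. Among 28 matrix proteases and inhibitors, the collagenase Mmp13 (3.25) and the urokinase receptor Plaur (1.10) were higher, and Timp4, Mmp16 (−1.14) and the neutrophil collagenase Mmp8 (−1.93) lower. The call of Plaur was lost without any 1 of 7 libraries, with 0.80 without NC replicate 2, and that of Mmp16 without either PLA library. Mmp13 was at 7.47, 2.03 and 15.8 CPM in the NC libraries, at 64.3, 78.6 and 95.3 in GelMA, at 11.8, 8.38 and 34.5 in CTS and at 403 and 314 in PLA. PLA and GelMA were far above NC, while 2 CTS libraries lay within its range.

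Granulocyte genes were also lower, and CTS met the sign with small values. Neutrophil genes were called lower for 9 of 16 (median −1.81), eosinophil genes for 4 of 7 (median −2.49) and mast cell and basophil genes for 7 of 10 (median −2.43). The medians in CTS were −0.28, 0.00 and −0.84, and the libraries of none of these 20 genes were separated from NC. Ngp, a granule protein of neutrophils, was at 8325, 1305 and 6299.6 CPM in the NC libraries, at 409, 265 and 115 in GelMA, at 3816, 5714 and 923 in CTS and at 248 and 291 in PLA. NC replicate 2 and CTS replicate 3 were low within their groups, and the effects were −4.33 in GelMA, −0.61 in CTS and −4.30 in PLA. Epx, the eosinophil peroxidase, had −3.77 in GelMA, −0.0038 in CTS and −8.43 in PLA, so CTS hardly differed from NC. Cpa3, the carboxypeptidase of mast cells, was at 32.0, 495 and 56.3 CPM in the NC libraries, at 9.64, 14.4 and 11.3 in GelMA, at 94.1, 64.1 and 89.0 in CTS and at 6.34 and 15.9 in PLA, with NC replicate 2 far above the other NC libraries. Its change of −3.14 (adjusted p = 0.014) became −0.998 without NC replicate 2 (adjusted p = 0.0526) and was not called without PLA replicate 1, and that of the tryptase Tpsab1 (−3.15) became 0.0143 without NC replicate 2 and was not called without any 1 of 7 scaffold libraries. Without NC replicate 2, 13 neutrophil, 5 eosinophil and 3 mast cell and basophil genes were called lower. Without PLA replicate 1, 4 mast cell and basophil genes were. The neutrophil count went to 3 and 2 without NC replicates 1 and 3 and to 2 and 4 without PLA replicates 1 and 2, and the eosinophil count to 1 and 0 without NC replicates 1 and 3 and to between 1 and 2 without CTS replicate 1 or 3 or either PLA library. S100a8 (−1.42, adjusted p = 0.0903) and S100a9 (−1.35, 0.0954) did not pass.

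Of 31 hypoxia and glycolysis genes, 7 were higher, among them the glucose transporter Slc2a1 (2.21 in GelMA, 0.76 in CTS and 4.29 in PLA) and the glycolytic enzyme genes Pfkl (1.37 in GelMA, 0.56 in CTS and 3.10 in PLA) and Tpi1 (1.12 in GelMA, 0.43 in CTS and 3.61 in PLA), and Slc2a3, another glucose transporter, was lower (−1.49, −0.95 without NC replicate 1, and not called without PLA replicate 1). All 8 differed among the scaffolds, and 1 was higher when PLA was left out of the contrast. Leaving out NC replicate 2 or 3 gave 13 or 4. Fth1, the heavy chain of ferritin, was at 1276, 952 and 1150.1 CPM in the NC libraries, at 2258, 3361 and 4028 in GelMA, at 1496, 1135 and 1675 in CTS and at 19508 and 19749 in PLA. PLA was far above every other library, and CTS replicate 2 lay within the NC range. In the NRF2 list of 21 genes, Fth1 and the cystine transporter Slc7a11 (0.32 in GelMA, 0.07 in CTS and 3.05 in PLA) were called, the latter at adjusted p = 0.0498 and lost without NC replicate 2, NC replicate 3 or any 1 scaffold library. Ddit3, a transcription factor of the integrated stress response, was the single call among 23 genes of that list (0.32 in GelMA, 0.20 in CTS and 2.68 in PLA), and Dusp2, a phosphatase of activated immune cells, among 26 immediate early genes (2.55 in GelMA, 1.51 in CTS and 4.00 in PLA). A single call in lists of this size is near the 4.29% over all genes tested, and that of Ddit3 was lost without NC replicate 2, GelMA replicate 3 or CTS replicate 1.

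Of 25 eicosanoid genes, 5 were lower, including the leukotriene genes Alox5 (−1.88) and Lta4h (−1.26) and the prostaglandin synthases Ptgs1 (−1.06) and Ptgis, and the lipoprotein phospholipase Pla2g7 was higher (1.61). The call of Alox5 was lost without NC replicate 1 or 3 or either PLA library. Without NC replicate 1 or 3 or PLA replicate 2, 1 gene of the list was called lower. Among 18 circadian clock genes, Per3 (−0.95 in GelMA, −1.12 in CTS and −2.10 in PLA) and Cry2 (−1.18 in GelMA, −0.92 in CTS and −1.01 in PLA) were lower and Per1 (1.39 in GelMA, 0.42 in CTS and 1.24 in PLA) was higher, with the call of Per1 lost without any 1 of 8 libraries and Cry2 at −0.57 without NC replicate 2 and not called without PLA replicate 2. The time of day of collection is not given in the sources used here. Integrins Itgb8 (1.64) and Itgae (1.47) were higher among 24, and C3ar1, the receptor of the anaphylatoxin C3a, among 20 complement genes (1.17), with the call of Itgae lost without NC replicate 3 and that of C3ar1 without NC replicate 2. The single higher calls of the complement and clock lists are near the 4.29% over all genes tested. Macrophage effector genes were higher for 4 of 14, namely Il1rn, the protease inhibitor Slpi (2.22), the nitric oxide synthase Nos2 (2.10) and Acod1, the source of itaconate (2.08). PLA had the strongest and CTS the weakest effect in all 4, and all 4 differed among the scaffolds. When PLA was left out of the contrast, 1 of the 14 was called. The list median was 0.02 in CTS and 2.58 in PLA.

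Lists of other cell types gave few calls, beside 4.29% called higher and 3.13% called lower over all genes tested. The endothelial transcription factor gene Erg was lower (−1.18), most in GelMA (−2.22), in a call lost without NC replicate 1 or 3. Also lower were S100b (−1.82) and Snap25 (−3.18) among 13 nerve and glia genes, Cryab (−1.80) among 14 heat shock genes, and Ahsp (−3.53) and Epb42 (−4.88) among 15 erythroid genes. Each of these 5 calls was lost without 3 or more single libraries. Epb42 rests on low levels, at 0.849, 0.542 and 0.459 CPM in NC and at most 0.253 CPM with a scaffold. No gene was called by edgeR among 14 pericyte and smooth muscle, 10 skeletal muscle, 6 adipocyte and 34 replication and mitosis genes, although 5, 1, 1 and 15 of them had an unadjusted p under 0.05. DESeq2 called 3, 0, 1 and 0 of them, and limma on log2(FPKM + 1) 2, 0, 0 and 0. Without NC replicate 2, 4 pericyte and smooth muscle genes were higher and 11 replication and mitosis genes lower.

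How far the common genes were alike in the 3 materials was tested by a contrast of the scaffold groups. NC was not part of that contrast, but the spread was estimated over all 11 libraries, NC included. Of the genes tested, 15.1% differed among the scaffolds, and of the common genes, 474 of 775 higher (61.2%) and 177 of 565 lower (31.3%) did. Without NC replicate 2, 702 of 1083 higher and 615 of 915 lower common genes differed. The size of change exceeded the fold threshold in each of the 3 scaffolds for 379 higher and 289 lower genes. PLA had the strongest effect in 404 of the higher genes, GelMA in 324 and CTS in 47, and the corresponding counts were 299, 235 and 31 among the lower ones. A gene that was not called in this test is not thereby shown to be alike in the materials.

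The sign rule set aside 24 higher and 28 lower genes that had passed the test of the mean, and in most of those with a gene symbol CTS went the other way. They included the mast cell and eosinophil genes Prg2 (−3.91 in GelMA, 0.42 in CTS and −6.12 in PLA) and Gata2 (−2.69 in GelMA, 0.01 in CTS and −2.81 in PLA), the chemokine gene Cxcl3 (1.87 in GelMA, −0.88 in CTS and 4.77 in PLA), the macrophage genes Arg1 (2.36 in GelMA, −0.10 in CTS and 3.13 in PLA) and Mrc1 (2.55 in GelMA, −0.01 in CTS and 1.29 in PLA), and the B cell gene Cd79b, which PLA moved the other way (3.36 in GelMA, 1.51 in CTS and −0.24 in PLA). At the threshold of fold, Egln1, an oxygen-sensing hydroxylase, was just inside with 1.001 and Ano8 with −1.003, and Vmp1 with 0.998 and Golim4 with −0.998 were just outside.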

How the data were processed

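Counts per gene and FPKM values were deposited by the authors for 11 libraries (Illumina RNA-seq of sorted Cd45- cells). The submitters' processing notes name fastp, HISAT2, HTSeq, DESeq and mRatBN7.2, with versions and strandedness not given in the sources used here. Every FPKM value above 0 that the authors deposited (205408) equals the count per length and total count within 0.001. Libraries were grouped by GEO's labels. Counts were fitted in edgeR 4.0.16 (R 4.3.3) over all 11 libraries and 4 groups, after filterByExpr (minimum count 10; 18049 of 23781 genes) and TMM, with robust quasi-likelihood tests of the equal-weight mean of 3 scaffolds minus NC, and SE taken as the effect over the square root of F. A call needed an adjusted p under 0.05, a log2 fold change beyond 1 and the same sign in each scaffold group. Differences among scaffolds were tested in the same fit. Statistics were checked on simulated data.

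Named genes are the 12 higher and 12 lower called genes with a gene symbol, a mean log2 CPM of at least 3, no overlap between scaffold and NC libraries and the largest weakest scaffold effect, and up to 2 called genes a list and direction ranked by that effect. Further list members were named after their values were seen, and some are not reported here. The members and the 40 lists (870 genes) were chosen with earlier results of these data known. Folds against an arm with 0 counts were set against 3 counts in that arm as a floor. Intervals (95%) cover counting error only. Alternatives were DESeq2 1.42.0, limma 3.58.1 on log2 FPKM, other scalings, filters, thresholds and weights, a replicate block, and leaving out each library or material. Close copies (RT1, Ms4a, Gimap, Mx1 and Mx2, Ccl3 and Ccl4) may share reads. Of the names, 7121 are LOC or RGD identifiers. Promoters are from a RefSeq table on GRCr8 (33469 entries, the first used for the 3251 symbols with several), matched by symbol for 13222 genes tested. Figures were drawn with matplotlib 3.10.9 (Python 3.11.15).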

Additional observations from a re-analysis of the deposited data

Results flagged for a closer look

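Each result here was singled out because the 3 scaffold groups differed from each other (edgeR's quasi-likelihood test, adjusted over all genes tested). The contrast leaves NC out, but the fit and its estimate of spread include the NC libraries. Of the common genes, 474 of those called higher and 177 of those called lower differed. The adjusted p given for each gene below is that of this difference.

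Among genes with the strongest effect in GelMA were Cxcr6 (0.0434), Fcrl5 (0.00612), Ms4a6c (0.0152), Cxcr3 (0.0125), Ms4a1 (0.0076), the B cell gene Fcrla (0.0336, with 3.22 in GelMA, 1.44 in CTS and 2.33 in PLA), Ctss (0.00882), RT1-Bb (0.0218), Tcf7 (0.0202), Itgb8 (0.0204), Itgae (0.0116), Il17a (0.026) and Per1 (0.00718). Strongest in PLA were Slpi (0.00318), Il1rn (0.000959), Traf1 (0.00446), Cd200 (0.0152), Mmp13 (0.0103), Plaur (0.00908), Fth1 (0.000106), Slc7a11 (0.00136), Slc2a1 (0.00034), Pfkl (0.000703), Ddit3 (0.00012), Dusp2 (0.00506) and Id2 (0.000547). On the lower side the scaffolds differed for Ecrg4 (0.00679), Six2 (0.0281), Tgfb3 (0.0283), Erg (0.01), Il13ra2 (0.0334), Slc2a3 (0.0449) and Alox5 (0.0275), and for the granulocyte genes Ngp (0.0139), Cd177 (0.0249), Cebpe (0.0344) and Prg3 (0.0142). Cd177, a surface protein of neutrophils, had −2.48 in GelMA, −0.54 in CTS and −4.44 in PLA, Cebpe, a transcription factor of late granulocyte maturation, −3.10 in GelMA, −0.71 in CTS and −3.67 in PLA, and Prg3, a granule protein of eosinophils, −4.02 in GelMA, −0.18 in CTS and −8.46 in PLA. In each of these 4 granulocyte genes CTS was closest to NC. The call against NC was lost for Cd177 without either PLA library, for Cebpe also without NC replicate 3, and for Prg3 without NC replicate 1 or 3, CTS replicate 1 or 3 or PLA replicate 2.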

How the results depend on the processing

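The counts of common genes, 775 higher and 565 lower, moved under several settings. Higher counts were 379 with the fold threshold asked of every scaffold, 411 at an adjusted p under 0.01, 46 with the scaffold libraries as 1 group, 481 without PLA in the contrast and 1219 without CTS. Lower counts under those settings were 289, 125, 33, 257 and 1004, and 226 without GelMA, 1071 with DESeq2 and 122, 203 and 89 with limma on log2 FPKM (pseudocount 1, pseudocount 0.1, no filter). The share of calls that were higher, 57.8% with edgeR, was 84.1% with limma at pseudocount 1, 51.2% with DESeq2, 76.7% at an adjusted p under 0.01, 73.8% without GelMA and 45.2% without NC replicate 1. Leaving out 1 library gave 546 to 1083 higher (lowest without GelMA replicate 3, highest without NC replicate 2) and 252 to 1052 lower (without PLA replicate 1, without NC replicate 1). The counts that differ among the scaffolds then ranged from 273 to 702 and from 40 to 615, and those without overlap from 317 to 717 and from 122 to 547. Size factors by RLE, library size alone, no filter on low counts, no fold threshold and equal weight for the 8 scaffold libraries kept both counts within 1.5 times. With library size alone the median of all genes was −0.43 in PLA, 0.16 in GelMA and 0.12 in CTS, against −0.11, −0.05 and −0.02. Same-numbered libraries of different groups did not deviate together (correlations −0.108 to 0.118 over 15 pairs, −0.191 to 0.258 over the 30 others), so the number was not taken as a pairing. A replicate block gave 645 higher and 278 lower genes, and 79 lower genes that differ among the scaffolds. Of 2584 values of named genes under the alternatives, 474 lost the call, 10 gained one and 1 turned its direction, Tpsab1, whose value ran from −3.73 without NC replicate 3 to 0.0143 without NC replicate 2. Of 2160 counts by list, 426 moved by over 1.5 times. Depth limits genes with few counts, where 51 higher genes had 0 counts in NC and 20 genes had 1 to 3 counts in an arm. The causes of these shifts were not tested.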

Other observations

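The groups of genes here were put together after values had been seen, so their counts are descriptions without a test. Of 15 T cell costimulation and exhaustion genes tested, 10 were called higher, with a median of 2.29. Ctla4, the inhibitory receptor of activated and regulatory T cells, was at 1.36, 2.89 and 2.18 CPM in the NC libraries, at 98.5, 87.5 and 95.8 in GelMA, at 10.5, 5.37 and 18.6 in CTS and at 22.5 and 38.8 in PLA. GelMA was highest, every scaffold library exceeded every NC library, and the change was 3.90 (adjusted p = 0.0014). Tigit (3.37), Slamf6 (3.40), Btla (3.04), Icos (2.92) and Tnfrsf18, which encodes GITR (2.60), were also higher, while Lag3 (0.79) and Havcr2 (0.82) were not called. Of 11 genes of the interleukin 17 axis, 7 were higher. Il17f had 1 count in NC and 1002 with a scaffold, 295-fold in CPM with a counting interval of 52.8 to 11667. Its CPM was 8.83, 5.86 and 4.29 in GelMA and 8.04 and 6.49 in PLA. In CTS it was 0.118, 0.284 and 0.328, near 0, and the scaffolds differed (adjusted p = 0.00146 in the contrast of the scaffolds). Ccr6, the homing receptor of type 17 T cells, was at 2.46, 0.768 and 2.76 CPM in the NC libraries, at 68.2, 43.5 and 39.4 in GelMA, at 4.64, 3.07 and 15.1 in CTS and at 15.8 and 11.8 in PLA. Of 7 GIMAP genes, GTPases of lymphocytes that lie in 1 cluster and share sequence, 5 were higher, with a median of 2.45. The MS4A family was split, with 6 of 10 genes higher, among them the macrophage gene Ms4a4a (2.14), and the mast cell and myeloid progenitor genes Ms4a2 (−2.62) and Ms4a3 (−2.04) lower. Ms4a2 had −3.81 in GelMA, −0.19 in CTS and −3.85 in PLA, and Ms4a3 −2.94, −0.45 and −2.74. Both differed among the scaffolds, and CTS hardly differed from NC for Ms4a2.

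Of 13 tendon and ligament genes, 8 were lower, with a median of −2.37. Mkx, a transcription factor of tendon, was at 4.07, 2.67 and 3.02 CPM in the NC libraries, at 1.05, 0.364 and 0.584 in GelMA, at 0.561, 3.38 and 1.77 in CTS and at 0.0415 and 0.344 in PLA. The groups met in CTS replicate 2, and CTS had the weakest effect. Kera, a keratan sulfate proteoglycan, had −2.74 in GelMA, −1.07 in CTS and −4.01 in PLA, and the matrix protein Cilp2 −3.94 in GelMA, −1.78 in CTS and −2.79 in PLA. Kera was at 1.27, 7.41 and 0.727 CPM in the NC libraries and at 0.738, 2.15 and 1.57 in CTS. NC replicate 3 thus lay below all CTS libraries, and NC replicate 2 was far above the other NC libraries. Scx, the transcription factor of tendon progenitors, did not pass (−1.19, adjusted p = 0.468). Of 15 imprinted genes, H19, Igf2, Peg10 (−1.68) and Grb10 (−1.42) were lower, and the median was −1.45. Grb10 overlapped, with NC replicate 1 at 118 CPM and CTS replicate 3 at 194. NC replicate 2 was far above NC replicates 1 and 3 for some members that were not called. Plagl1 was at 38.6, 312 and 70.2 CPM in the NC libraries and Sgce at 3.06, 55.4 and 13.2. For H19 and Igf2, NC replicate 2 was instead the lowest NC library. In the insulin-like growth factor system, Igf2 and Igfbp2 were lower and Igfbp4 higher (1.18) among 11 genes, and Igf1 (−1.26, adjusted p = 0.0586) and Igfbp5 (−2.31, 0.0593) did not pass.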
